A study of Mus musculus with 6 samples.

Results

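The 39 human HOX genes of the HOXA, HOXB, HOXC and HOXD clusters were followed in tumours of A375 cells, a human melanoma line in long use, under ZLD1039, an inhibitor of EZH2. They were selected by their Ensembl identifiers, and 11 of the 39 were listed in at least 1 tumour, among 15234 loci in all. HOX genes encode homeodomain transcription factors that give cells their position along the body axis. Within a cluster the genes stand in a row, transcribed in the same direction: genes at the 3′ end act towards the head, and genes at the 5′ end in the lower trunk, limbs and genital region. They are textbook targets of Polycomb repression, in which EZH2, the catalytic subunit of the PRC2 complex, methylates histone H3 and keeps genes silent that a cell does not use.

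A375 cells of the genotype labelled WT were placed under the skin of BALB/c nude mice, which lack T cells. The vehicle group received the carrier alone by gavage each day, and the ZLD1039 group 100 mg/kg by the same route; both were sampled on day 27. Each group held 5 mice, of which 3 tumours were sequenced, 6 in all. The labels do not say that each tumour came from its own mouse, so p-values here cover the spread over these tumours alone, and all derive from 1 cell line.

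The files list transcript events (start sites, ends, exons, introns) with an abundance in FPKM, which scales fragments to transcript length and library size. Tumours listed 12114 to 12758 loci, and 70.6% of all loci were listed in every tumour. The positions are human although the labels give the mouse as organism and the processing notes name mm10, and reads of the host placed on the human genome cannot be separated. Of 6 identifiers set as markers of pigment-lineage melanoma cells, 4 were listed; ENSG00000120215 and ENSG00000077498 were not. Their summed level was 53.9 to 81.2 FPKM in vehicle and 24.3 to 56.2 FPKM in ZLD1039 tumours. In each tumour most of it came from 1 locus of ENSG00000100146, at 48.8, 56.0 and 70.0 FPKM in vehicle and 50.2, 21.8 and 21.3 FPKM in ZLD1039 tumours. Of 6 identifiers set as markers of host leukocytes, endothelium and fibroblasts, ENSG00000129226 was listed at 633.9 to 923.9 FPKM, ENSG00000139329 in 1 tumour at 0.0549 FPKM, and the rest in none. The locus of ENSG00000129226 runs from 7452208 to 7483645 on human chromosome 17 and may contain neighbouring genes. Its value can therefore not be read as a level of host leukocytes. The part of the cell makeup in the values below was not tested. In bulk tumours, fewer cells that use a gene and less RNA per cell cannot be told apart. ZLD1039 tumour 2 stood apart from the others on the first principal component (51.9, against -13.3 to -4.02), so the tests of HOX genes and of the gene lists are also given without it.

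The files pair no gene names with the identifiers, and no human annotation was used here, so each HOX gene is given by its identifier, its cluster and its place. No locus of the series carries more than 1 identifier. The HOXB gene ENSG00000108511 names a locus of 56.1 kb on the minus strand of chromosome 17 (46626232 to 46682354). In the HOXC interval a locus of 71.0 kb and in the HOXA interval one of 27.7 kb run on the strand of the HOX genes, and neither carries an identifier among the 39. In the HOXD interval ENSG00000128652 spans 16.3 kb, with starts 13346 bases apart, and ENSG00000128710 spans 12.7 kb, with starts spread over 9293 bases. Neighbouring HOX genes may therefore be contained in all of these loci, and the 28 identifiers that were not listed cannot be read as silent genes. Absence from the list of a single tumour is also no proof of silence. Of 15234 loci in all, 25 were missing from at least 1 tumour although their median over the tumours that had them exceeded 10 FPKM. Their share among all loci of that level was not counted.

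The listed HOX genes were 2 of HOXA, 1 of HOXB, 2 of HOXC and 6 of HOXD. Vehicle tumours 1, 2 and 3 listed 9, 9 and 8 of them, and ZLD1039 tumours 1, 2 and 3 listed 9, 9 and 11. All 6 tumours listed 8 of the 11, and the remaining 3 in 1 to 5 tumours. Both genes listed in 1 tumour only were listed in ZLD1039 tumour 3. These were ENSG00000105996 of HOXA at 1.25 FPKM and ENSG00000128645 of HOXD at 0.0407 FPKM.

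Levels were low to moderate. The mean over the 6 tumours ranged from 0.00677 FPKM for ENSG00000128645 to 5.88 FPKM for the HOXB gene ENSG00000108511, and the median over all listed loci was 4.10 FPKM. The HOXB gene lay at percentile 57.2 of all loci, ENSG00000128714 of HOXD at 52.3, and every other HOX gene below 50. The HOXB value sums 6 first exons, whose starts spread over 30969 bases, and may include neighbouring genes, so its rank may not be that of a single gene. The same holds for the HOXD loci ENSG00000128652 and ENSG00000128710, whose starts also lie far apart. In order of level came ENSG00000108511 (HOXB), ENSG00000128714, ENSG00000128709 and ENSG00000175879 (all HOXD), and ENSG00000123364 (HOXC). After a step to about 1 FPKM followed ENSG00000128652 (HOXD), ENSG00000123388 (HOXC), ENSG00000128710 (HOXD), the 2 HOXA genes and ENSG00000128645. The ranges over tumours overlapped between all neighbours in this order except at that step: ENSG00000123364 reached down to 2.07 FPKM and ENSG00000128652 up to 1.75 FPKM.

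**Figure D1:**
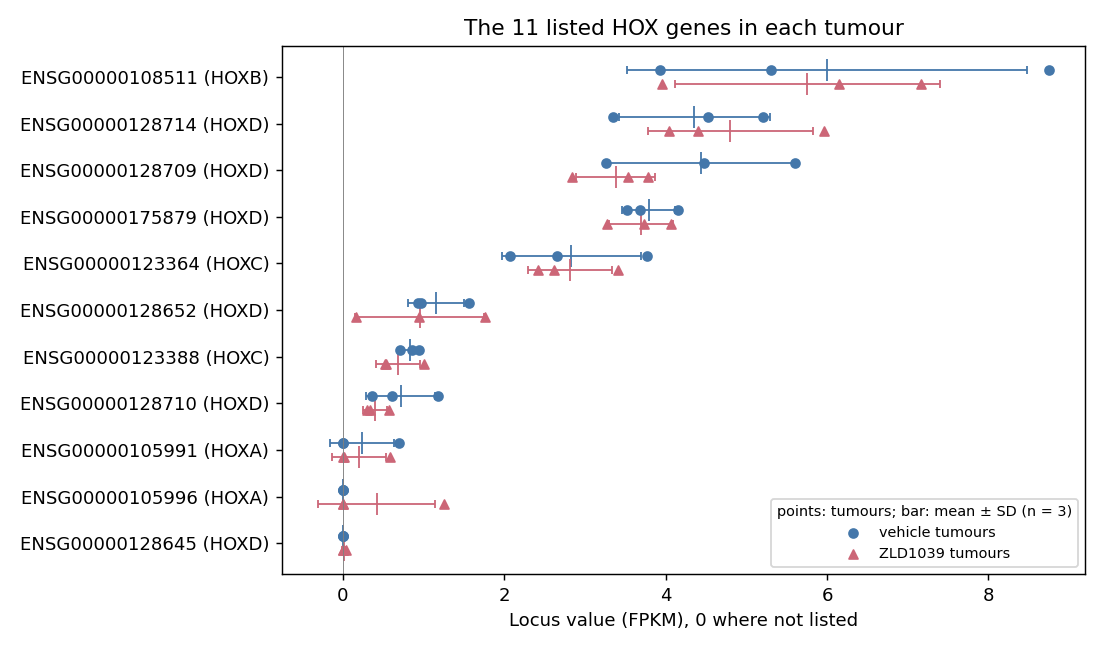
Locus value in FPKM (horizontal axis) of the 11 listed HOX genes, ordered by their mean, with a circle for each vehicle tumour, a triangle for each ZLD1039 tumour and a bar for the mean ± SD (n = 3). The highest single value is 8.75 FPKM, of the HOXB locus in vehicle tumour 1, and the groups overlap at every gene that passed the filter. The HOXB value sums 6 first exons and may include neighbouring genes.

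Along the HOXD cluster, on the plus strand of chromosome 2, listing and level were uneven. The 5′-most listed gene, ENSG00000128714 (176957619 to 176960666), stood at 3.35, 4.52 and 5.20 FPKM in vehicle tumours 1, 2 and 3 and at 4.04, 5.96 and 4.40 FPKM in the ZLD1039 tumours. The next, ENSG00000128710, 14.4 kb further in the 3′ direction, stood lower in each tumour, at 0.296 to 1.18 FPKM. A pair of higher genes followed, at 29.5 and 36.8 kb.

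ENSG00000128709 (176987088 to 176989853) stood at 3.26, 4.47 and 5.60 FPKM in vehicle and at 3.53, 3.78 and 2.83 FPKM in ZLD1039 tumours. The top 2 values were both in vehicle tumours, and the groups overlapped. ENSG00000175879 (176994422 to 176997076) was the steadiest HOX gene, at 3.69, 3.53 and 4.15 FPKM in vehicle and 4.07, 3.73 and 3.28 FPKM in ZLD1039 tumours, with a coefficient of variation of 8.8% over the 6 tumours. ENSG00000128652 (177001685 to 177017954) stood at 0.964, 0.935 and 1.56 FPKM in vehicle and at 0.939, 1.75 and 0.160 FPKM in ZLD1039 tumours. Its highest and its lowest tumour both belonged to the ZLD1039 group. The 3′-most gene, ENSG00000128645, lay 95.7 kb from the first and was listed in 1 tumour.

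In the HOXC cluster, on the plus strand of chromosome 12, the 5′-most listed gene was ENSG00000123364 (54332535 to 54340328). It measured 2.07, 2.66 and 3.77 FPKM in vehicle and 2.62, 2.42 and 3.41 FPKM in ZLD1039 tumours, so that the vehicle tumours held both its lowest and its highest value. ENSG00000123388 (54366910 to 54371427), 34.4 kb further on, measured 0.703, 0.943 and 0.861 FPKM in vehicle and 0.528, 0.524 and 0.9996 FPKM in ZLD1039 tumours. It stayed under a mean of 1 FPKM in both groups and was not tested.

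The HOXB gene ENSG00000108511 measured 8.75, 5.31 and 3.93 FPKM in vehicle and 7.16, 3.95 and 6.15 FPKM in ZLD1039 tumours. Its highest and lowest values were both in the vehicle group. In the HOXA cluster, on the minus strand of chromosome 7, the 2 listed genes were neighbours at the 3′ end. ENSG00000105991 (27132612 to 27135615) was listed at 0.690 FPKM in vehicle tumour 1 and 0.588 FPKM in ZLD1039 tumour 2, at 0.00689 FPKM or less in 3 others, and not in vehicle tumour 3. High and near-absent values thus occurred in both groups. ENSG00000105996 (27139721 to 27141084) was listed by a transcript end alone, with no start site.

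**Figure D2:**
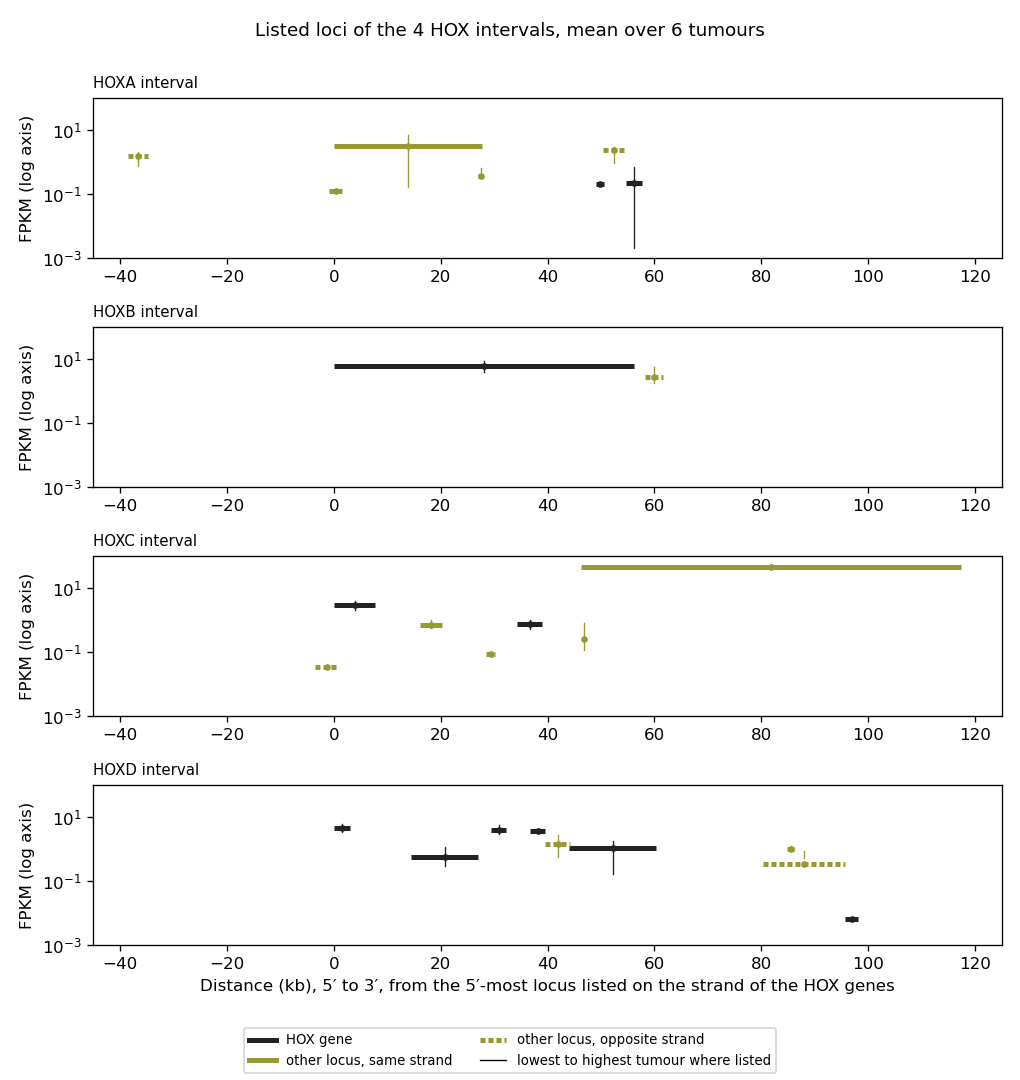
Listed loci of the 4 HOX intervals, by distance in kb from the 5′-most locus on the strand of the HOX genes (horizontal axis) and by mean FPKM over the 6 tumours (vertical log axis); thick bars span a locus, and thin lines run from the lowest to the highest tumour in which it was listed. HOX genes are drawn in black and other loci in olive, broken where they lie on the opposite strand; the 71.0 kb locus of the HOXC interval is the highest.

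Summed over each cluster, the HOX genes of both groups covered overlapping ranges. Among loci that carry a HOX identifier, HOXD had the largest sum in each tumour, with 11.9, 13.8 and 17.7 FPKM in vehicle and 13.1, 15.5 and 11.1 FPKM in ZLD1039 tumours. The HOXC genes summed to 3.67 ± 0.932 FPKM in vehicle and 3.50 ± 0.794 FPKM in ZLD1039 tumours (SD, n = 3). For HOXA the sums were 0.231 ± 0.397 and 0.615 ± 0.626 FPKM (SD, n = 3), the second resting on ZLD1039 tumours 2 and 3. All 11 HOX genes together gave 24.1, 22.7 and 26.3 FPKM in vehicle and 23.5, 23.0 and 22.9 FPKM in ZLD1039 tumours. Over all loci of an interval, the 71.0 kb locus included, HOXC was highest, at 42.6 to 61.3 FPKM against 13.3 to 22.5 FPKM for HOXD. These sums are descriptions and were not tested.

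No HOX gene passed the test of a difference between ZLD1039 and vehicle tumours. Of the 6 that passed the filter, 0 reached an adjusted p under 0.05, where 0.0185% of the 10834 loci tested did (limma with Benjamini-Hochberg adjustment; smallest adjusted p among the HOX genes 0.881). An unadjusted p under 0.05 was also reached by 0 of the 6, against 4.94% of all loci. At 0 of the 6 did the groups stand without overlap, against 10.9% of all loci. With 6 genes these shares carry little information. The log2 difference was above 0 for 2 and below 0 for 4, with a median of -0.03 beside 0.02 over all loci tested.

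ENSG00000128709 of HOXD had the largest difference of the 6, 4.44 ± 1.17 FPKM in vehicle and 3.38 ± 0.490 FPKM in ZLD1039 tumours (SD, n = 3). The difference in log2(FPKM + 1) was -0.30 ± 0.22 (SE), its 95% interval ran from -0.80 to 0.21, and limma gave an adjusted p of 0.881. Of the 6 genes only this one kept its sign whichever tumour was left out, between -0.46 and -0.15. ENSG00000128652, also of HOXD, differed by -0.22 ± 0.38 (SE; 95% interval -1.09 to 0.65; adjusted p = 0.926 by limma). Without ZLD1039 tumour 3 it differed by 0.12.

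ENSG00000128714, at the 5′ end of HOXD, differed by 0.12 ± 0.22 (SE; 95% interval -0.38 to 0.61; adjusted p = 0.931 by limma). ENSG00000175879 differed by -0.03 ± 0.18 (95% interval -0.44 to 0.38), ENSG00000123364 of HOXC by 0.01 ± 0.24 (-0.54 to 0.56), and ENSG00000108511 of HOXB by -0.02 ± 0.30 (-0.71 to 0.66). For these 3 genes limma gave an adjusted p of 0.978, 0.996 and 0.991. Over the 6 genes the highest upper bound, that of the HOXB gene, is 1.59-fold on the FPKM + 1 scale, which understates changes of low genes. A rise larger than that lies outside the 95% interval of each tested gene, and differences within the intervals could not be resolved with 3 tumours a group.

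Without ZLD1039 tumour 2, again 0 HOX genes passed by limma (smallest adjusted p = 0.953). The log2 difference was then 0.18 for the HOXB gene, -0.36 for ENSG00000128709, -0.51 for ENSG00000128652, and -0.02 for ENSG00000128714. It was 0.08 for ENSG00000123364 and -0.04 for ENSG00000175879.

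**Figure D3:**
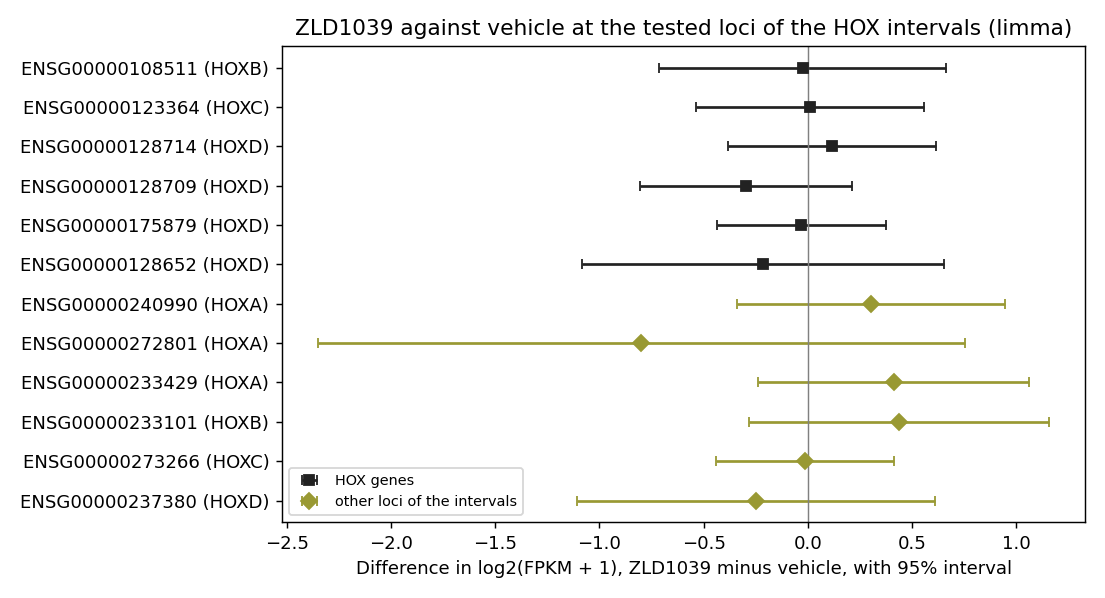
Difference in log2(FPKM + 1), ZLD1039 minus vehicle (horizontal axis), with its 95% interval by limma, for the 6 tested HOX genes (squares) and the 6 tested other loci of the HOX intervals (diamonds). Every interval includes 0.

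Transcript structure was examined event by event. The 11 HOX loci held 65 events, 39 of them in the HOXB locus; 14 were listed in all 6 tumours and 20 in a single tumour. Of 21 events tested, 0 passed by limma (smallest adjusted p = 0.855), where 0.0362% of 82894 events did. An unadjusted p under 0.05 was reached by 0 of the 21, against 4.7% of all events. Events of 1 transcript share their value, so the 21 are not independent.

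The HOXB locus changed its leading first exon in 1 tumour, with the start unchanged. The first exon at 46681842 to 46682354, at the 5′ limit of the locus, was used at 5.33 and 4.32 FPKM in vehicle tumours 1 and 2 and at 0.0555 FPKM in vehicle tumour 3. In the ZLD1039 tumours it was used at 4.93, 2.08 and 4.39 FPKM. In vehicle tumour 3 a shorter first exon with the same 5′ limit (46682224 to 46682354) took its place, at 2.78 FPKM, and it was listed in no other tumour. By tumour, 52.7 to 81.3% of the summed start abundance fell on whichever first exon led. Another start, 22733 bases further in the 3′ direction, was listed in vehicle tumour 1 and all ZLD1039 tumours, at 0.509 to 3.42 FPKM.

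An exon near the 3′ end of the HOXB locus (46629389 to 46629994) gave the smallest p of the HOX events, together with the splicing of the adjoining intron (46629994 to 46632893), which has the same values. It was listed at 3.56, 0.991 and 0.909 FPKM in vehicle tumours, at 0.517 FPKM in ZLD1039 tumour 1 and not in ZLD1039 tumours 2 and 3, so the groups did not overlap, as at 10.3% of all events tested. The log2 difference was -1.17 ± 0.50 (SE), with an unadjusted p of 0.0544 and an adjusted p of 0.855 by limma. With a pseudocount of 0.1 the difference was -3.12, and without vehicle tumour 1, its highest, the exon no longer passed the filter. It was singled out after its values were seen. The adjoining intron was also listed as retained, at 0.704 FPKM in vehicle tumour 1 and at 1.46 and 1.75 FPKM in ZLD1039 tumours 1 and 3 only. The log2 difference of this retained form was 0.66 (limma, adjusted p = 0.855).

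Other HOX loci with several starts lay in HOXD. ENSG00000175879 had a pair of starts 46 bases apart. The upstream one, with a first exon of 81 bases, was used at 1.66, 2.23 and 1.38 FPKM in vehicle and at 2.49 and 0.320 FPKM in ZLD1039 tumours 2 and 3, and was not listed in ZLD1039 tumour 1. The downstream one led in vehicle tumours 1 and 3 and ZLD1039 tumours 1 and 3, with 54.9 to 100.0% of the start abundance. The sum of both, given above, varied less than either.

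ENSG00000128652 consisted of 2 stretches 10639 bases apart, each with its own start and end. No listed event joined them, so the locus may hold more than 1 gene. Its value, rank and difference given above may then not be those of a single gene. The 3′ stretch led in every tumour but ZLD1039 tumour 3, with 73.4 to 100.0% of the start abundance. The 3′ stretch (177015031 to 177017954) was listed at 0.708, 0.760 and 1.56 FPKM in vehicle and at 0.939 and 1.39 FPKM in ZLD1039 tumours 1 and 2. The 5′ stretch (177001685 to 177004391) was the only one listed in ZLD1039 tumour 3, at 0.160 FPKM. ENSG00000128710 led with the same start (176981307 to 176982306) in all 6 tumours, with 59.4 to 100.0% of its start abundance. Its starts spread over 9293 bases, so it too may hold more than 1 gene.

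**Figure D4:**
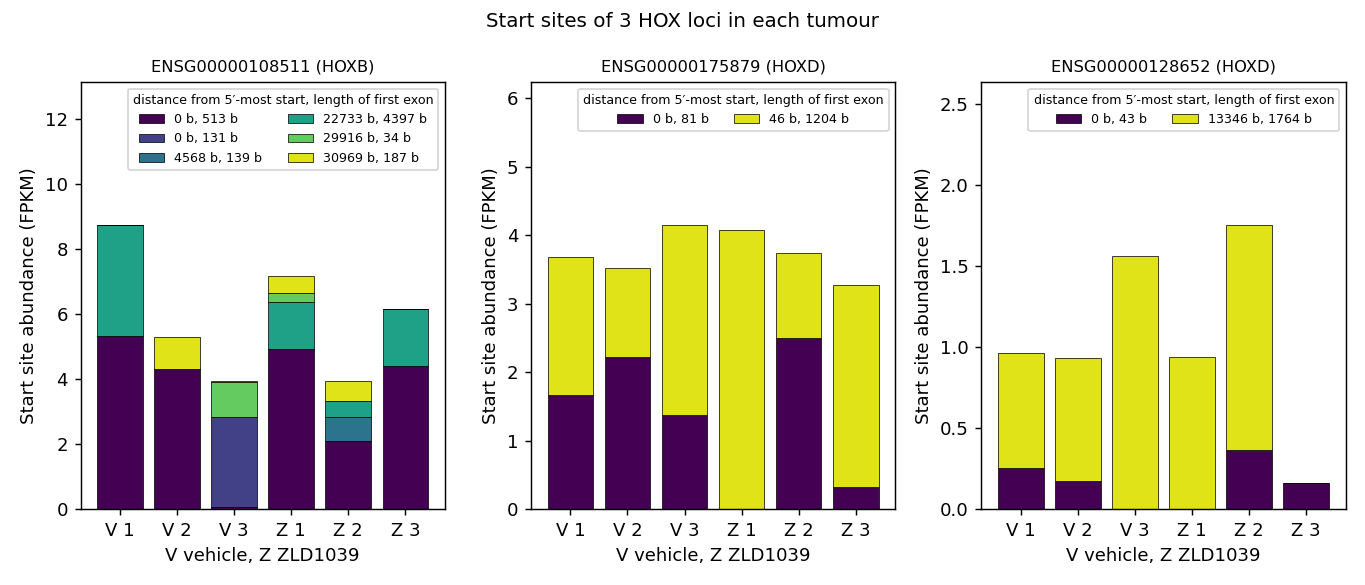
Abundance of each start site in FPKM (stacked bars, vertical axis from 0) of ENSG00000108511, ENSG00000175879 and ENSG00000128652 in vehicle (V) and ZLD1039 (Z) tumours 1 to 3; the legends give the distance from the 5′-most start and the length of the first exon, in bases. In vehicle tumour 3 the HOXB bar is made up mainly of the shorter first exon at 2.78 FPKM.

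The HOX intervals held 14 other loci, all with an Ensembl identifier, 4 on the strand of the HOX genes and 10 on the opposite strand. By far the most abundant was ENSG00000273266 of the HOXC interval (54378849 to 54449814, plus strand), with 39.2, 44.4 and 55.3 FPKM in vehicle and 41.3, 51.3 and 44.0 FPKM in ZLD1039 tumours. It lay at percentile 93.9 of all loci, and its value sums 16 start sites, the largest number in these intervals. Its log2 difference was -0.01 ± 0.18 (SE; 95% interval -0.44 to 0.41; adjusted p = 0.991 by limma). ENSG00000272801 of the HOXA interval (27162489 to 27190222, minus strand) had the largest standard error of the tested interval loci, with 2.47, 6.91 and 1.87 FPKM in vehicle and 6.0, 0.169 and 0.834 FPKM in ZLD1039 tumours. Its difference was -0.80 ± 0.67 (SE; adjusted p = 0.881 by limma). It was -0.26 without ZLD1039 tumour 2, -0.36 without vehicle tumour 2, -1.55 without ZLD1039 tumour 1 (adjusted p = 0.512 by limma) and -1.51 with a pseudocount of 0.1.

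Of the 14 other loci 6 were tested and 0 passed (limma, smallest adjusted p = 0.881), 0 of them also at an unadjusted p under 0.05. Their log2 differences ran from -0.80 to 0.44, with a median of 0.15. On the strand opposite to the HOX genes, ENSG00000233429 of HOXA (27135713 to 27139773) stood at 2.78, 0.949 and 2.24 FPKM in vehicle and 2.96, 2.85 and 2.68 FPKM in ZLD1039 tumours. It starts 98 bases beyond the 5′ limit of ENSG00000105991, and its level exceeded that of this HOX gene in every tumour. ENSG00000233101 of HOXB (46620855 to 46624101) stood at 1.76, 2.11 and 2.25 FPKM in vehicle and 2.47, 5.56 and 2.04 FPKM in ZLD1039 tumours, a log2 difference of 0.44 that was 0.10 without ZLD1039 tumour 2. Whether the counting used strand is not given in the sources used here. Opposite loci overlapped ENSG00000105996 by 53, ENSG00000128652 by 142 and ENSG00000123364 by 893 bases, and reads there cannot be assigned to a strand with certainty.

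Proteins of the PBX, MEIS and PKNOX families bind DNA together with HOX proteins. Of 9 identifiers set for them from background knowledge, 8 were listed and 4 tested, and 0 passed in either direction (limma, smallest adjusted p = 0.881; 0 with an unadjusted p under 0.05). Their median log2 difference was 0.01. ENSG00000204304 was the highest of these, at 18.8, 21.3 and 23.4 FPKM in vehicle and 20.5, 13.8 and 23.6 FPKM in ZLD1039 tumours, above every HOX gene in each tumour. ENSG00000134138 had the largest difference, from 2.99, 3.20 and 5.31 FPKM in vehicle to 4.19, 8.22 and 5.23 FPKM in ZLD1039 tumours, a log2 difference of 0.50 ± 0.28 (SE; adjusted p = 0.881 by limma).

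Of 4 identifiers set for the PRC2 core, which places the mark that the inhibitor blocks, all were tested and 0 passed (limma, smallest adjusted p = 0.881; 0 with an unadjusted p under 0.05). Each was above 0 in its log2 difference, from 0.09 to 0.27. ENSG00000106462, set for EZH2, stood at 6.88, 7.09 and 6.85 FPKM in vehicle and 8.07, 8.96 and 8.63 FPKM in ZLD1039 tumours. Its groups did not overlap, as at 10.9% of all loci tested (log2 difference 0.27, adjusted p = 0.881 by limma). The groups of the other PRC2 identifiers overlapped. Of 10 identifiers set for genes beside the clusters, 7 were listed, 1 of them (ENSG00000228630) inside the HOXC interval and counted above. Of these 5 were tested and 0 passed (limma, smallest adjusted p = 0.881; 0 with an unadjusted p under 0.05), with a median of -0.003. The pigment-lineage markers had a median of -0.66 over 3 tested, all below 0. Of these, 0 passed and 1, ENSG00000100146, had an unadjusted p under 0.05, as did 4.94% of all loci (log2 difference -0.98, adjusted p = 0.881 by limma). Without ZLD1039 tumour 2 each of these 4 lists again had 0 genes past the threshold (smallest adjusted p = 0.953 by limma), with medians of 0.12 for the HOX partners, 0.19 for PRC2, -0.10 for the neighbouring genes and -0.45 for the pigment-lineage markers. ENSG00000134138 then differed by 0.27 and ENSG00000100146 by -0.80, and 1 PRC2 identifier, ENSG00000108799, lay below 0, at -0.03. An unadjusted p under 0.05 was then reached by 1 gene of the lists, ENSG00000123415 beside HOXC, at a log2 difference of 1.06 in place of 0.63. The part of the marker difference in the HOX values was not tested.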

How the data were processed

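For each tumour the authors deposited a list of transcript events, each with an FPKM value (fragments scaled to transcript length and library size), per the file headers. The submitters' processing notes mention HTSeq 0.6.1, bcl2fastq 2.17.1.14 and mm10. Aligner and event-listing program: not given in the sources used here. Repeated rows of an event were dropped, and events were joined across tumours by their number. A locus was valued at the largest of its summed start sites, its summed ends and its largest event, with 0 where unlisted, which is a lower bound of its abundance. Vehicle and ZLD1039 tumours were compared with limma 3.58.1 (R 4.3.3) after adding a pseudocount of 1 FPKM and taking log2, with limma's trend option, for every locus or event whose mean reached 1 FPKM in either group. Benjamini-Hochberg adjustment ran over everything tested, at 0.05. The fit was tested on simulated data. FPKM keeps no read number, so depth and counting error are unknown. The 39 genes, the other lists and the locus value were chosen with earlier results of these data known. HOX genes that passed the filter were named with the value in every tumour, and events where they led a locus. Alternatives covered the filter, pseudocount, scaling, locus value, trend, replicate number as a block, and each tumour left out. No human annotation or sequence was used here.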

Additional observations from a re-analysis of the deposited data

How the results depend on the processing

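The count of changed HOX genes remained 0 in all 15 alternatives tried, and that of changed HOX events in all 11. Scaling to equal summed FPKM was chosen after seeing the data. An unadjusted p under 0.05 was reached by 0 HOX genes in each alternative and by 0 to 2 events. Without a filter all 11 HOX genes were tested by limma, with a smallest adjusted p of 0.794. With a replicate block the count was 0 for genes and 0 for events. The labels state no pairing of the tumours. Same-numbered tumours correlated at -0.03, 0.02 and -0.06 in their deviations from the group means, and no tumour correlated best with its own number. With 3 tumours a group these values cannot settle whether the numbers pair tumours. The largest event as locus value gave 0.31 for ENSG00000175879 in place of -0.03, and quantile normalization 0.004. For ENSG00000123364 the difference of 0.01 became -0.004 with median-of-ratios scaling and -0.031 with equal summed FPKM. With 1 tumour left out the log2 differences ran from -0.25 to 0.245 for ENSG00000108511, -0.14 to 0.18 for ENSG00000123364 and -0.027 to 0.23 for ENSG00000128714. They ran from -0.087 to 0.035 for ENSG00000175879, -0.51 to 0.12 for ENSG00000128652, -0.12 to 0.12 for ENSG00000273266 and -0.596 to 0.02 for ENSG00000237380. Without vehicle tumour 3 ENSG00000128652 no longer passed the filter, so its range leaves out that omission. None of these differences was called, and the cause of the sign changes was not tested. Depth is unknown, so a counting error cannot be given.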

Other observations

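Start sites of the 71.0 kb locus ENSG00000273266 in the HOXC interval differed between single tumours more than the locus did. The start at 54393903 to 54394510 was used at 5.63, 7.11 and 9.50 FPKM in vehicle tumours 1, 2 and 3 and at 8.34 FPKM in ZLD1039 tumour 1, but at 0.11 and 0.21 FPKM in ZLD1039 tumours 2 and 3. The start at 54389293 to 54389333, upstream of it, was listed in these 2 tumours alone, at 7.73 and 6.80 FPKM. The end of the locus (54448634 to 54449814) stood at 9.94, 11.5 and 13.1 FPKM in vehicle and at 6.24, 9.27 and 3.21 FPKM in ZLD1039 tumours, groups without overlap. Its log2 difference was -0.88 (limma, adjusted p = 0.855), from -1.18 to -0.53 with 1 tumour left out. Of the 14 tested events of the locus, 4 had groups without overlap, 3 lower and 1 higher under ZLD1039, where 10.3% of all events tested had. The same 4 had an unadjusted p of 0.033 to 0.048 by limma, where 4.7% of all events had 1 under 0.05. Events of 1 transcript share their value, so the 4 are not independent. The other lower ones were the skipping of an exon (54448262 to 54448310), with a log2 difference of -0.95, and the start at 54443781 to 54448145, with -1.45 (limma, adjusted p = 0.855 for each in all 6 tumours). The difference of this start was -0.92 without ZLD1039 tumour 1 and -2.04 without ZLD1039 tumour 2 (adjusted p = 0.378 by limma for the latter). The higher one was the start at 54402832 to 54403504, at 3.09, 3.18 and 4.13 FPKM in vehicle and at 5.36, 5.36 and 5.63 FPKM in ZLD1039 tumours, a log2 difference of 0.54 (limma, adjusted p = 0.855). An intron close to that end (54447060 to 54447701) was listed as retained at 5.04 FPKM in ZLD1039 tumour 1 only. All of these were singled out after their values were seen.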
